A study of Mus musculus with 22 samples.

Results

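The loss of Sav1 in hearts that also lacked Lin9 was measured by RNA-seq of ventricles from mouse embryos at E13.5. A group of 3 libraries labelled LIN9 KO Sav1 KO (the double knockout) was compared with 3 libraries labelled LIN9 KO Sav1 wt (the Lin9 single knockout). These 6 libraries were chosen by their genotype labels only, out of 12 libraries of the second RNA-seq experiment of the study and out of 22 samples in all. The other samples are an earlier RNA-seq experiment with 6 libraries and ChIP-seq of LIN9, and the comparison asks which transcripts differ on loss of a Hippo pathway gene when Lin9 is deleted too.

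All groups carried Nkx2.5-Cre, a recombinase active in cardiac precursors and their descendants. The double knockout was Lin9 fl/fl and Sav1 fl/fl, and the single knockout was Lin9 fl/fl and Sav1 +/+. The 6 other libraries of the experiment, used here for the shared estimate of spread and for the test of interaction, were labelled LIN9 wt Sav1 KO (Sav1 fl/fl) and LIN9 wt Sav1 wt (Sav1 +/+). Their LIN9 wt label stands for Lin9 fl/+ in the description of the mice, so that both carried a floxed Lin9 allele together with Cre. Cells outside the Nkx2.5 lineage kept both genes, and each floxed allele loses a part of its gene and not the whole. The libraries were made from mRNA isolated with magnetic beads. Total counts over all genes were 2999877, 2998980 and 2770741 in the single knockout and 2906101, 2840053 and 2848385 in the double knockout, and between 2912330 and 2974933 in the LIN9 wt libraries. At this depth 17675 of 48709 genes had a mean count above 1 over the 12 libraries and were tested. Levels are given as CPM, the counts scaled to a common library size with TMM factors, for replicates 1, 2 and 3 in this order. Nothing in the labels says whether replicates came from separate animals, so the p-values measure the spread between these samples.

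SAV1 (Salvador) is the scaffold of the Hippo kinases MST and LATS, which phosphorylate the coactivators YAP and TAZ and keep them out of the nucleus. Without it YAP and TAZ can act with TEAD factors on genes of growth and proliferation, and in the heart the pathway restrains cardiomyocyte division. LIN9 is a subunit of MuvB, which joins p130 and E2F4 in the repressive DREAM complex of resting cells and B-MYB in the MMB complex that activates genes of mitosis and cytokinesis.

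The targeted genes were looked at first. Sav1 (chromosome 12, 69965012 to 69987002) stood at 51.9, 49.9 and 47.3 CPM in the single knockout and at 44.0, 40.5 and 42.3 CPM in the double knockout. Every double knockout library was below every single knockout library, but the difference of -0.23 on the log2 scale (SE 0.12) did not pass the edgeR test (adjusted p = 0.464). In the LIN9 wt groups Sav1 was at 54.5, 56.2 and 61.9 CPM with Sav1 wt and at 43.1, 36.1 and 43.0 CPM with Sav1 KO. Lin9 (chromosome 1, 180641150 to 180690694) was at 13.1, 15.4 and 17.9 CPM in the single knockout and, although the same alleles were floxed, at 23.5, 26.1 and 18.5 CPM in the double knockout. The second set lay above the first without overlap (log2 0.56, SE 0.20, adjusted p = 0.238, edgeR) and overlapped the LIN9 wt libraries, with replicate 3 below all of them. These held 29.3, 28.1 and 23.2 CPM with Sav1 wt and 19.2, 31.4 and 25.6 CPM with Sav1 KO. In the earlier experiment Lin9 was at 29.8, 21.4 and 25.6 CPM in LIN9 wt and at 21.4, 21.3 and 19.2 CPM in LIN9 KO ventricles (log2 -0.31, adjusted p = 0.13, edgeR). Counts over a whole gene include the part that remains after recombination and the cells without Cre, so these levels do not check the deletion itself. Over 12397 genes above 5 CPM, the first principal component (50.2% of the variance) placed the double knockout at 21.4, 30.4 and 23.5 beside the single knockout at 21.6, 31.1 and 30.4, and all LIN9 wt libraries between -29.9 and -22.9.

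**Figure D1:**
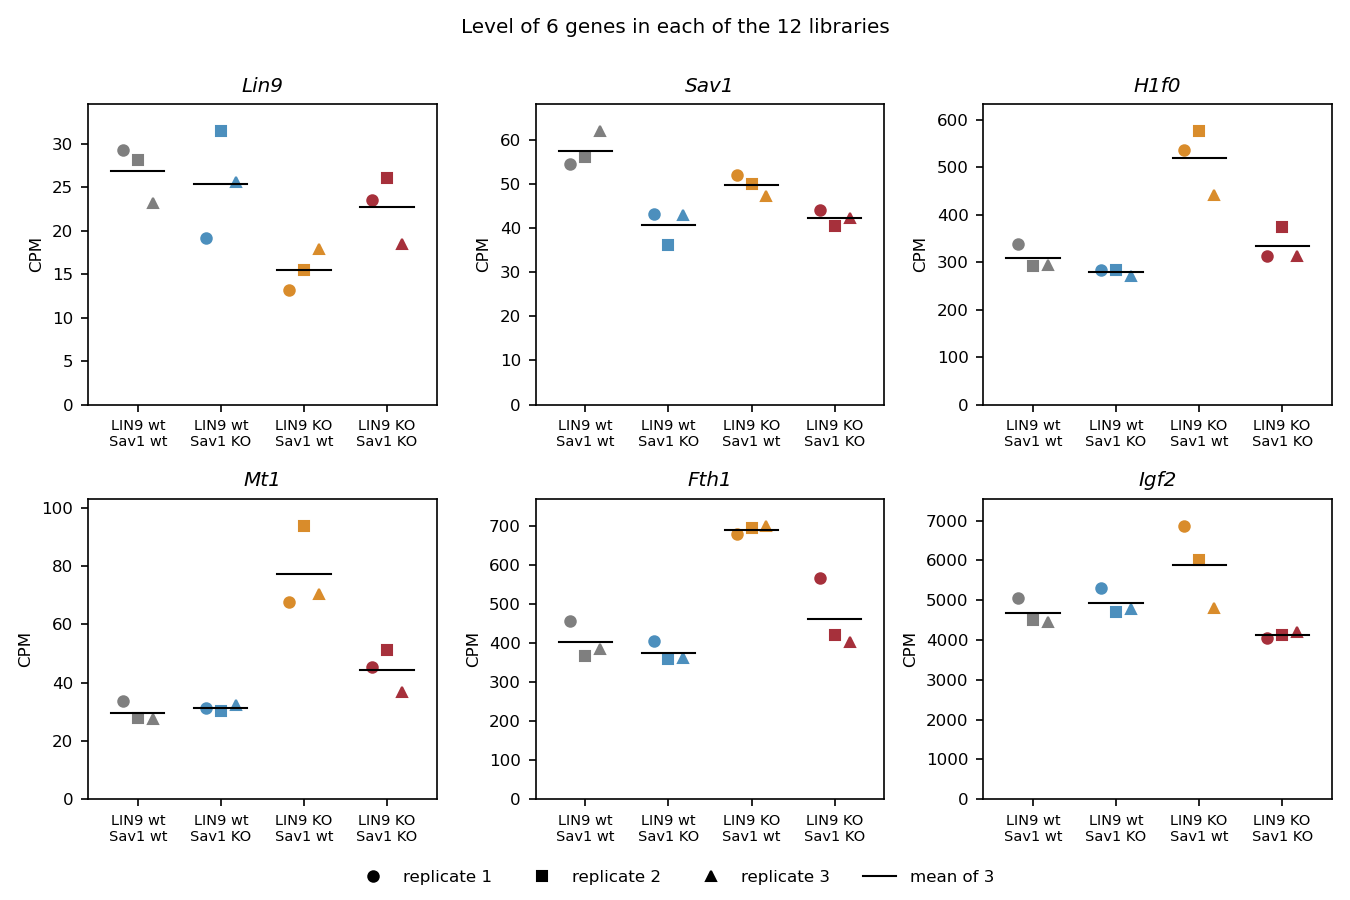
CPM (y axis, from 0) of 6 genes in the 12 libraries, with each genotype group on the x axis, a symbol for each replicate and a line at the mean of 3. H1f0, Mt1, Fth1 and Igf2 are lower in every double knockout library than in every LIN9 KO Sav1 wt library, while Lin9 in replicates 1 and 2 of the double knockout lies among the LIN9 wt values.

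Some libraries stood apart from their group. Replicate 1 of the single knockout had the lowest mean correlation with its group mates (0.951), and on the second principal component (20.3% of the variance) it lay at 44.8 and replicate 1 of LIN9 wt Sav1 wt at 22.1, with the 10 other libraries between -14.8 and 7.1. Replicate 3 of the single knockout had the smallest total, a mean correlation of 0.957 and 22.6% of its counts in its 100 most abundant genes, against 17.7% to 20.2% elsewhere. The chi-square per gene between replicates of a group was between 1.22 and 21.5, the largest for replicates 1 and 3 of the single knockout, and none was near 0, as a library deposited more than once would be.

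Replicate 3 differed from its mates in structural RNAs, a group chosen after its values were seen. The 28 tested genes annotated as ribosomal RNA, small nuclear, small nucleolar or Cajal body RNA, ribozyme or miscellaneous RNA held 0.274%, 0.281% and 2.65% of the counts of the single knockout libraries and 1.37%, 2.03% and 1.84% of those of the double knockout. They held between 0.446% and 1.08% in the LIN9 wt libraries. Rn18s-rs5, a copy of the 18S ribosomal RNA, was at 827, 1164 and 20025 CPM in the single knockout and at 7760, 13646 and 12634 CPM in the double knockout. The mitochondrial 16S RNA, mt-Rnr2, was at 1113, 992 and 4758 CPM against 3854, 4330 and 3881 CPM, and Rpph1, the RNA of ribonuclease P, at 0.329, 1.31 and 17.5 CPM against 11.9, 17.3 and 13.2 CPM. Replicates 1 and 2 of the single knockout thus held little of these RNAs, and replicate 3 and the double knockout held much. With all libraries none of them passed the test (Rn18s-rs5 log2 0.63, SE 1.04, adjusted p = 0.864, edgeR), and their part in the other results was not tested except where a fit with the 18S level as a covariate is given.

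Y-linked transcripts also separated the replicates. The summed level of Ddx3y, Eif2s3y, Kdm5d and Uty was 2.63, 102 and 229 CPM in the single knockout and 179, 139 and 90.7 CPM in the double knockout, with Ddx3y the most abundant, and between 109 and 168 CPM in the LIN9 wt libraries. Only replicate 1 of the single knockout was near 0, and Xist, the transcript of the inactive X chromosome, is listed at 0 in all 12 libraries. The 14 tested erythroid genes summed to 21270.0, 30691 and 39149 CPM in the single knockout and 30927, 19507 and 10732 CPM in the double knockout, while the LIN9 wt libraries held 3344 to 5356 CPM. Hbb-y, an embryonic beta globin, was the most abundant of them, at 8444, 12411 and 16207 CPM against 12266, 7569 and 3908 CPM. Alas2, the erythroid enzyme of haem synthesis, is listed at 0. In bulk tissue fewer cells of a type and less RNA per cell cannot be told apart. The part of blood content and of the sex of the embryos in the results below was not tested.

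**Figure D2:**
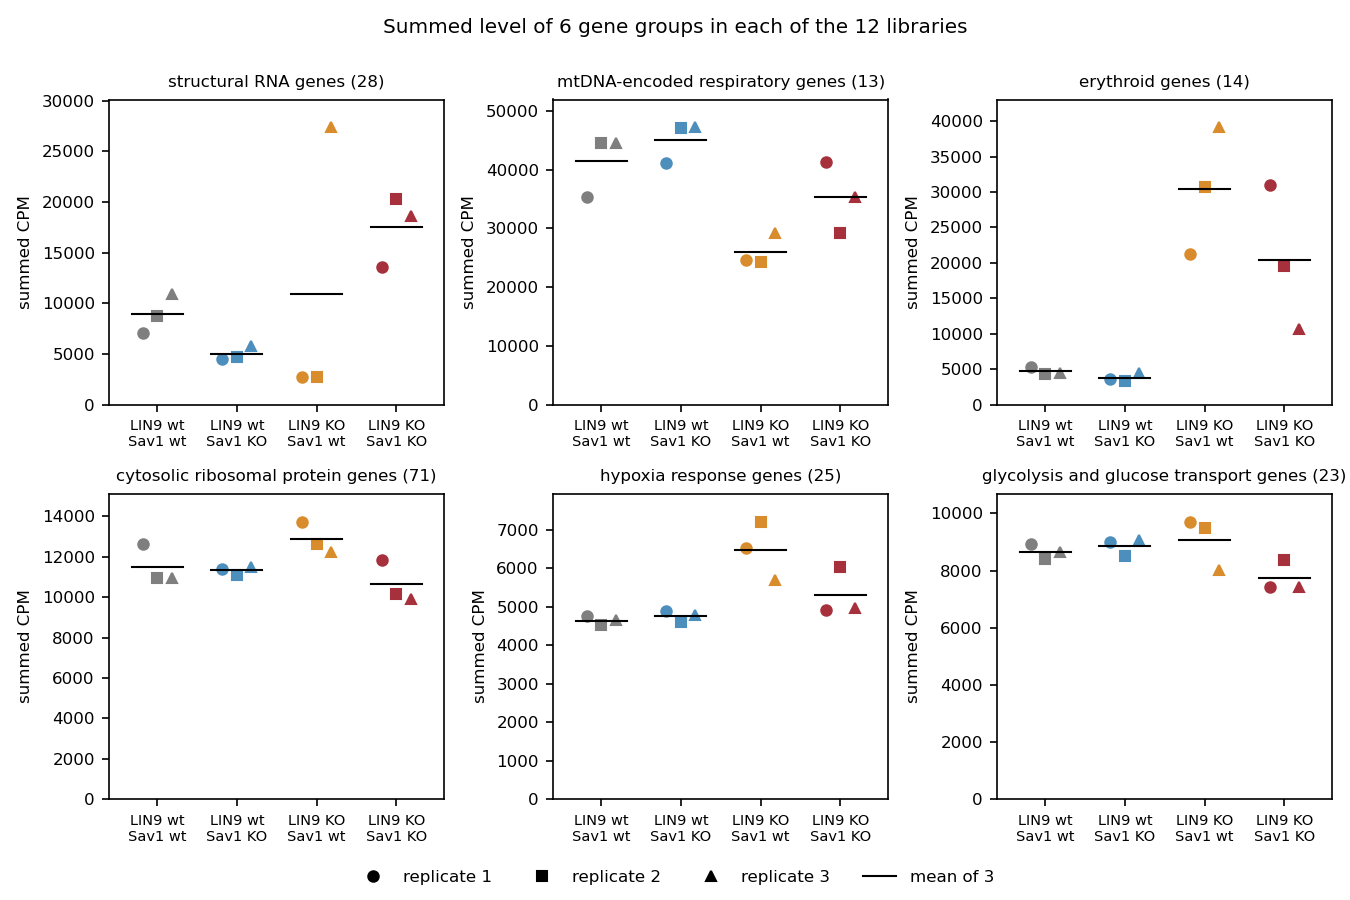
Summed CPM (y axis, from 0) of 6 gene groups in the 12 libraries, with genotype on the x axis, a symbol for each replicate, a line at the mean of 3 and the number of genes in brackets. Structural RNA is high in replicate 3 of LIN9 KO Sav1 wt and in all double knockout libraries, and erythroid RNA is high and scattered in both LIN9 KO groups.

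The tissue label was checked against cardiac markers. The 6 ventricular cardiomyocyte genes summed to 7072, 5944 and 4593 CPM in the single and 5460.1, 6031 and 6132 CPM in the double knockout, with Myh7, the beta myosin heavy chain, the most abundant at 3981, 3353 and 2352 CPM and 2186, 3348 and 3664 CPM. LIN9 wt libraries held 12764 to 14278 CPM of this group. Few markers of other organs were tested: of 8 liver and gut endoderm genes only Ttr was tested (0.657, 1.31 and 1.86 CPM and 2.05, 3.52 and 1.42 CPM), with Alb and Serpina1a at 0, and of 6 epithelial genes of lung and pharynx only Krt8 and Krt18 were tested, at a summed 77.6, 79.4 and 70.1 CPM and 56.2, 61.6 and 64.0 CPM against 17.8 to 28.0 CPM in the LIN9 wt libraries, with Nkx2-1 and Sftpc at 0. Other untested members had a few counts over the 12 libraries together. Afp, Apoa1, Apoa2, Foxa2 and Trf had 2, 2, 7, 2 and 1, and the epithelial genes Epcam and Cdh1 had 10 and 9. A listed 0 is not absence in this table. In total 24883 genes are at 0 in all 12 libraries, and 31 members of the lists are among them, such as the cardiac actin Actc1, the skeletal actin Acta1, troponin C (Tnnc1), phospholamban (Pln), the mitotic genes Prc1 and Bub3, the replication factor Cdt1, Srf and Rpl13. Of these 31 genes 15 have exons that overlap another gene, and the cause of the zeros was not tested.

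The double knockout was then tested against the single knockout. At a Benjamini-Hochberg adjusted p under 0.05 in edgeR's quasi-likelihood test, 2 of 17675 genes (0.0113%) passed, the linker histone gene H1f0 and the metallothionein gene Mt1, and both fell. The number called depended on the fit, with 46 genes in DESeq2, 309 in edgeR with no filter on the mean count and 84 in edgeR with a block for the replicate number. At an unadjusted p under 0.05 there were 835 higher (4.72%) and 1258 lower genes (7.12%), and the libraries of the groups did not overlap for 1272 higher (7.2%) and 1393 lower genes (7.88%). For a single gene the smallest p of an exact two-sided permutation test over 3 and 3 libraries is 0.1. The precision was limited: the median SE of the log2 fold change was 0.153 over the 12474 genes of at least 5 CPM. Of the 31 genes with an adjusted p under 0.1, 21 were lower and 10 were higher, and the median log2 fold change of all genes was 0.00.

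H1f0 (chromosome 15, 79028450 to 79030504) encodes the linker histone H1.0, which accumulates in cells that leave the cell cycle. It stood at 537, 576 and 443 CPM in the single knockout and at 313, 375 and 313 CPM in the double knockout. The single knockout values were the highest of the experiment, and the double knockout values overlapped those of the LIN9 wt libraries, 338, 293 and 293 CPM with Sav1 wt and 284, 284 and 272 CPM with Sav1 KO. The log2 fold change was -0.64 (SE 0.11, adjusted p = 0.0303, edgeR). Mt1 (chromosome 8, 94179082 to 94180327) encodes a small cysteine-rich protein that binds zinc and copper and is induced by metals and glucocorticoids. It was at 67.7, 93.8 and 70.5 CPM in the single knockout and at 45.3, 51.1 and 36.6 CPM in the double knockout, with no overlap, and at 33.6, 27.8 and 27.3 CPM and 31.3, 30.4 and 32.4 CPM in LIN9 wt libraries with Sav1 wt and Sav1 KO. Its log2 fold change was -0.80 (SE 0.14, adjusted p = 0.0303, edgeR). The difference between the LIN9 backgrounds did not pass for either gene, with adjusted interaction p-values of 0.677 for H1f0 and 0.482 for Mt1 (edgeR).

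Both calls depended on the settings and the libraries of the fit. With filterByExpr the adjusted p was 0.0926 for H1f0 and 0.103 for Mt1, without robust estimation 0.215 for both and with only the 6 libraries of the contrast 0.309 for both (edgeR). With 1 library of the contrast left out the log2 fold change of H1f0 stayed between -0.74 and -0.53 and the log2 fold change of Mt1 between -0.92 and -0.62. Without replicate 3 of the single knockout, the library rich in structural RNA, 356 genes passed, of which 154 were higher (0.871%) and 202 lower (1.14%), and the adjusted p was 1.91e-04 for H1f0 and 0.00308 for Mt1 (edgeR). Without replicate 1 or 2 of the single knockout 4 and 2 genes passed, and without replicate 1, 2 or 3 of the double knockout 1, 15 and 0 genes. H1f0 and Mt1 were not among those called without replicate 2 of the single knockout (adjusted p = 0.175 and 0.199, edgeR) or without replicates 1 or 3 of the double knockout (H1f0 0.0558 and 0.109, Mt1 0.0558 and 0.211). Libraries outside the contrast mattered too: leaving out replicate 1 of LIN9 wt Sav1 wt gave 23 genes, and leaving out any of the 5 other LIN9 wt libraries gave 0, with adjusted p-values between 0.0578 and 0.0872 for both genes. With the 18S ribosomal RNA level as a covariate 1 gene passed, the predicted gene Gm21887, and H1f0 and Mt1 were at log2 -0.49 and -0.72 with an adjusted p of 0.337 each (edgeR). For this contrast the fits that each left out 1 LIN9 wt library and the fit with the covariate were chosen after seeing the data. The fit with only the 6 libraries of the contrast was planned. DESeq2 called H1f0 (adjusted p = 4.65e-04) and gave no adjusted p for Mt1.

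**Figure D3:**
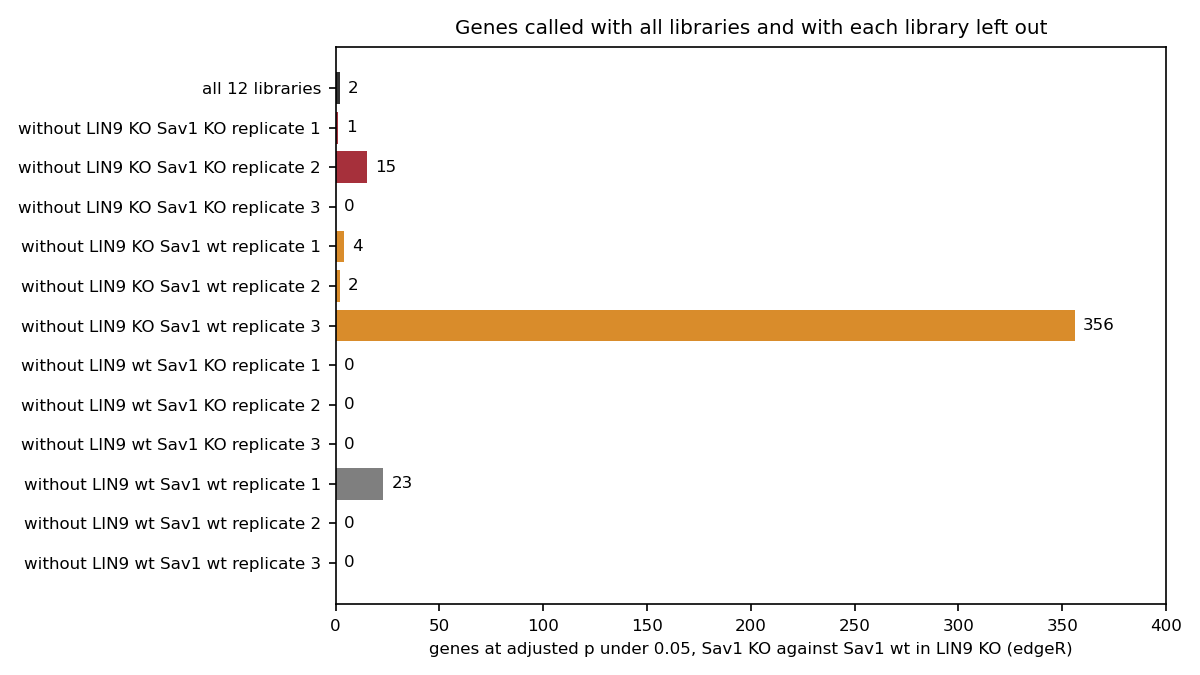
Number of genes at an adjusted p under 0.05 (x axis, edgeR) for Sav1 KO against Sav1 wt in the LIN9 KO background, with all 12 libraries and with each library left out (y axis). The count is 2 with all libraries, 356 without replicate 3 of LIN9 KO Sav1 wt and 23 without replicate 1 of LIN9 wt Sav1 wt.

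Mt1 and its neighbour Mt2 lie next to each other on chromosome 8 and both have metal response elements, which the zinc sensor MTF-1 binds. Their promoters, 250 bases before to 50 bases after the RefSeq start on the plus strand of GRCm38.p6, are shown because Mt1 was called and Mt2 is its paralogue. Capitals mark matches of TGCNCNC, a loose form of the core of the metal response element, on either strand. Whether a match is a working element was not tested.
Mt1, chr8:94178839-94179138: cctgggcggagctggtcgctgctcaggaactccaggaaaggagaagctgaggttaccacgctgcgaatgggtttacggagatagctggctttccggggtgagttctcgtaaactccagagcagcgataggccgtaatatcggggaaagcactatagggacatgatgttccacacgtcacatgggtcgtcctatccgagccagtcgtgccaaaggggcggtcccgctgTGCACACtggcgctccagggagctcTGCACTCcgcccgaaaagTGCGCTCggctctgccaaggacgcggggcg
Mt2, chr8:94172368-94172667: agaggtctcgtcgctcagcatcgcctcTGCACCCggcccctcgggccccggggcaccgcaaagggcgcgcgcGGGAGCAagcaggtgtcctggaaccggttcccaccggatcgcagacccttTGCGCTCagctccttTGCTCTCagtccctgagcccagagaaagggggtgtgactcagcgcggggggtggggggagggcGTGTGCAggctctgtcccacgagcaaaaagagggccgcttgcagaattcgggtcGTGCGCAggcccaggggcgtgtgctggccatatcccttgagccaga
The Mt1 window held 3 matches, all on the plus strand, and the Mt2 window 6, of which 3 were on each strand. At least 1 match was found in 51% of 32851 RefSeq promoters of this length and at least 3 in 7.1%. Neither window held the CCAAT box, the TEAD motif or the CHR element bound through LIN54, which 37.4%, 14.7% and 17.9% of promoters hold. The RefSeq window of H1f0, chr15:79027962-79028261 on the plus strand, held 0 matches of these 4 motifs and of the H1 box, a promoter element of linker histone genes, but it ends before the start of the gene given above.

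The other metallothioneins were low. Mt2 was at 4.27, 10.2 and 2.98 CPM in the single knockout and 2.73, 3.17 and 2.13 CPM in the double knockout, overlapping between groups (log2 -1.12, SE 0.45, adjusted p = 0.311, edgeR), and 73.5% of its exons overlap another gene, so its counts are uncertain. Mt3, the form known from brain, was at 19.7, 12.1 and 16.8 CPM and 17.0, 16.2 and 13.52 CPM (log2 -0.05), and Mt4 is listed at 0. Of 27 tested genes of metal handling, 6 had an unadjusted p under 0.05 in the lower and 1 in the higher direction (22.2% and 3.70%, against 7.12% and 4.72% of all genes), with a median log2 fold change of -0.05. The ferritin chains, which store iron, were among the lower ones. Fth1, the heavy chain, was at 679, 695 and 701 CPM in the single knockout and 566, 422 and 402 CPM in the double knockout (log2 -0.58, adjusted p = 0.056, edgeR), with the LIN9 wt libraries between 359 and 458 CPM. Ftl1, the light chain, was at 147, 169.6 and 155 CPM and 133, 118 and 99.2 CPM (log2 -0.43, edgeR adjusted p = 0.136). The higher gene was the zinc importer Slc39a10, at 95.0, 96.8 and 118 CPM against 135, 138 and 119 CPM.

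Of 9 linker histone genes 6 were tested, and 3 of them were lower at an unadjusted p under 0.05 without overlap between groups (50.0%, where 7.12% of all genes were lower and 7.88% lower without overlap). Besides H1f0 these were H1fx, at 19.1, 20.7 and 16.4 CPM in the single and 11.2, 10.6 and 11.0 CPM in the double knockout (log2 -0.77, adjusted p = 0.131, edgeR), and Hist1h1c, at 32.2, 41.7 and 29.8 CPM and 27.3, 26.8 and 26.0 CPM (log2 -0.38, adjusted p = 0.331). Replication-dependent Hist1h1b, Hist1h1d and Hist1h1e were at most 3.52 CPM in these 6 libraries. Among 8 replication-independent core histone genes 3 were lower and 0 higher at an unadjusted p under 0.05 (37.5% and 0%, against 7.12% and 4.72%). H3f3b, which encodes the variant H3.3, was at 466, 526 and 414 CPM against 328, 362 and 356 CPM (log2 -0.43, adjusted p = 0.0944, edgeR), and H2afv and H2afx were the others.

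Further lower genes came close to the threshold. Igf2, the imprinted growth factor of the embryo, was at 6872, 6007 and 4803 CPM in the single knockout and 4055, 4122 and 4210.1 CPM in the double knockout, below the LIN9 wt libraries as well, which held 4465 to 5319 CPM (log2 -0.51, SE 0.11, adjusted p = 0.0618, edgeR). Its exons overlap other genes over 64.5% of their length. H19, the imprinted noncoding RNA beside it, was at 11694, 10322 and 9446 CPM and 7877, 7085 and 7335 CPM (log2 -0.50, edgeR adjusted p = 0.056). Without replicate 3 of the single knockout both passed (Igf2 log2 -0.64, adjusted p = 0.00148; H19 log2 -0.57, adjusted p = 0.00876, edgeR). Of 13 genes of the insulin-like growth factor system 5 were lower and 0 higher at an unadjusted p under 0.05 (38.5% and 0%, against 7.12% and 4.72% of all genes), with a median of -0.16, and of -0.07 without replicate 1 of the single knockout. The binding protein Igfbp5 (641, 587 and 505 CPM against 331, 435 and 588 CPM) and the receptor substrate Irs2 (69.3, 56.1 and 39.5 CPM against 32.4, 50.4 and 42.7 CPM) were among them with overlapping groups. The zinc finger factor Sall1 was at 64.1, 66.9 and 45.9 CPM and 36.8, 38.7 and 31.3 CPM (log2 -0.73), the endothelial factor Sox7 at 82.2, 66.6 and 54.8 CPM and 38.2, 48.3 and 37.7 CPM (log2 -0.72) and Cotl1, which binds actin filaments, at 89.4, 75.4 and 69.7 CPM and 51.1, 39.8 and 58.0 CPM (log2 -0.66). Each of these 3 had an adjusted p of 0.056 (edgeR). With a block for the replicate number Igf2, H19, Sall1, Sox7 and Cotl1 had adjusted p-values between 0.0058 and 0.0138 (edgeR). In that fit Igfbp5 and Irs2 did not pass (0.457 and 0.271). The processed pseudogenes Gm6977 (log2 -0.79) and Gm10051 (log2 -0.50) completed the 10 lower genes of smallest p, and their counts are uncertain, since sharing of reads with their parent genes was not tested.

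No higher gene passed in this fit, while 24 of the 46 genes called by DESeq2 and 146 of the 309 called with no filter were higher. The smallest p belonged to the predicted gene Gm21887 on the X chromosome (log2 0.63, adjusted p = 0.056, edgeR). It was at 84.1, 91.8 and 67.9 CPM in the single and 136, 125 and 116 CPM in the double knockout. In LIN9 wt it was higher with Sav1 KO too, at 87.8, 91.1 and 73.0 CPM against 110, 108 and 127 CPM (log2 0.45, adjusted p = 0.502, edgeR). Whether this predicted gene shares reads with similar copies was not tested. Dleu2, a noncoding RNA that hosts a microRNA cluster, was at 17.7, 31.5 and 28.3 CPM in the single and 53.9, 46.1 and 41.3 CPM in the double knockout (log2 0.87, edgeR adjusted p = 0.056). Snx7, a sorting nexin of endosomes, was at 29.6, 34.1 and 33.2 CPM and 68.9, 44.4 and 48.7 CPM (log2 0.74, edgeR adjusted p = 0.056). In both genes the double knockout also lay above the LIN9 wt libraries, which reached 35.3 and 44.1 CPM. The other 7 genes follow. Coro6, a coronin, was at 64.1, 67.6 and 64.1 CPM and 81.5, 100.4 and 104 CPM. Dock4, an activator of Rac, was at 22.7, 35.4 and 32.8 CPM and 49.1, 48.3 and 47.7 CPM. Sorbs2, an adaptor of the Z-disc, was at 219, 240.1 and 258 CPM and 327, 305 and 366 CPM. Their log2 fold changes were 0.54, 0.68 and 0.48, and LIN9 wt Sav1 wt libraries held more Coro6 (116 to 133 CPM) and Sorbs2 (513 to 668 CPM) than the double knockout did. Myo19, the myosin of mitochondria, was at 14.5, 14.1 and 17.1 CPM and 22.8, 23.6 and 31.3 CPM (log2 0.77). Ndufaf4, an assembly factor of respiratory complex I, was at 23.3, 22.0 and 24.6 CPM and 49.1, 29.6 and 35.2 CPM (log2 0.71). Spp1, which encodes osteopontin, was at 30.6, 25.3 and 22.4 CPM in the single and 43.6, 40.5 and 44.5 CPM in the double knockout (log2 0.71), against 2.06 to 4.39 CPM in the LIN9 wt libraries, and Rsrp1 had a log2 fold change of 0.48. The adjusted p-values of these 7 genes lay between 0.0675 and 0.0978 (edgeR).

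All 13 tested respiratory chain genes encoded in the mitochondrial genome had a higher level in the double knockout at an unadjusted p under 0.05, in 7 of them without overlap between groups, where 4.72% of all genes were higher at this p and 7.2% higher without overlap. None passed the adjusted threshold. Their median log2 fold change was 0.54, against 0.10 for Sav1 loss in the LIN9 wt background. Summed over the 13 genes the level was 24624, 24243 and 29274 CPM in the single and 41389, 29266 and 35289 CPM in the double knockout, so the lowest double knockout library was level with the highest single knockout library, and LIN9 wt libraries held 35272 to 47227 CPM. The complex I subunit mt-Nd3 was at 235, 161 and 219 CPM and 399, 243 and 378 CPM (log2 0.73, adjusted p = 0.136, edgeR). The ATP synthase subunit mt-Atp8 was at 167, 194 and 236 CPM and 337, 242 and 290.3 CPM (log2 0.54, edgeR adjusted p = 0.143). The complex IV subunit mt-Co3 was at 1821, 1944 and 2178 CPM and 3057, 2231 and 2631 CPM (log2 0.41, edgeR adjusted p = 0.142). Without replicate 3 of the single knockout 5 of the 13 passed, and the median was 0.69. With the 18S level as a covariate the median was 0.40. Replicate 3 was the highest single knockout library in this sum, as it was in the structural RNAs described above.

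Of 76 tested respiratory chain subunits encoded in the nucleus 0 were higher and 3 lower at an unadjusted p under 0.05 (edgeR; 0 passed the adjusted threshold), with a median of -0.02. Of all genes 4.72% were higher and 7.12% lower at this p. The 22 citric acid cycle enzymes gave 0 higher and 1 lower (median 0.01), and 28 genes of fatty acid uptake and oxidation gave 1 higher and 1 lower (median 0.01). In the LIN9 wt background the medians of these lists were -0.01, 0.01 and -0.02.

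Most genes of glycolysis and of the hypoxia response had negative log2 fold changes, and 0 of either list passed the adjusted threshold (edgeR). Of 23 tested genes of glycolysis and glucose transport 15 were lower and 0 higher at an unadjusted p under 0.05 (65.2% and 0%, against 7.12% and 4.72% of all genes), with 6 not overlapping between groups and a median of -0.25. Without overlap 7.88% of all genes were lower. In the LIN9 wt background the median was 0.04. Aldoa, the muscle aldolase, was at 1133, 1158 and 963 CPM in the single and 844, 937 and 889 CPM in the double knockout (log2 -0.29, adjusted p = 0.22, edgeR). Pfkl, a phosphofructokinase, was at 448, 427 and 328 CPM and 274, 354 and 314 CPM, and the glucose transporters Slc2a1 and Slc2a4 had log2 fold changes of -0.37 and -0.48. Of 25 tested hypoxia response genes 16 were lower and 0 higher (64.0% and 0%), with 6 not overlapping and a median of -0.35, against -0.02 in the LIN9 wt background. Pdk1, a kinase that shuts off pyruvate dehydrogenase, was at 401, 435 and 361 CPM and 292, 357 and 283 CPM (log2 -0.36, edgeR adjusted p = 0.147). The collagen hydroxylase P4ha1 was at 382, 435 and 358 CPM and 274, 355 and 303 CPM (log2 -0.33, edgeR adjusted p = 0.186), and all 6 LIN9 wt libraries lay far lower, between 104 and 118 CPM. The oxygen sensor Egln1 and the regulator of glycolysis Pfkfb3 had log2 fold changes of -0.36 and -0.43. Summed over the hypoxia list, the single knockout held 6519.6, 7212 and 5699 CPM and the double knockout 4919, 6039 and 4972 CPM, with the LIN9 wt libraries between 4517 and 4888 CPM. Replicate 3 was the lowest single knockout library in both lists, and without it 8 genes of each list passed. With the 18S level as a covariate the medians were -0.24 for hypoxia and -0.14 for glycolysis, and with replicate 1 of the single knockout left out the glycolysis median was -0.19.

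Of 71 tested cytosolic ribosomal protein genes 68 had a negative log2 fold change, and 0 passed the adjusted threshold (edgeR). Of them 39 were lower and 0 higher at an unadjusted p under 0.05, and 31 did not overlap between groups (54.9% and 0% at this p, against 7.12% and 4.72% of all genes, of which 7.88% were lower without overlap). The median was -0.25 against 0.00 for all genes and -0.00 for this list in the LIN9 wt background. The summed level was 13739, 12612 and 12243 CPM in the single and 11824, 10177 and 9905 CPM in the double knockout, and the LIN9 wt libraries held 10931 to 12626 CPM. Rpl28, a protein of the large subunit, was at 67.4, 75.4 and 68.2 CPM and 50.4, 47.5 and 49.8 CPM (log2 -0.51, adjusted p = 0.0832, edgeR). Rps2 and Rps26 of the small subunit and the stalk protein gene Rplp2 had log2 fold changes of -0.40, -0.42 and -0.41. Without replicate 3 of the single knockout 5 genes of the list passed. Ribosomal protein genes have many processed copies with which reads can be shared, and processed pseudogenes as a class were lower too: of 1542 tested, 234 were lower and 13 higher at an unadjusted p under 0.05 (median -0.18), while 14354 protein coding genes gave 984 and 705 (median 0.00).

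**Figure D4:**
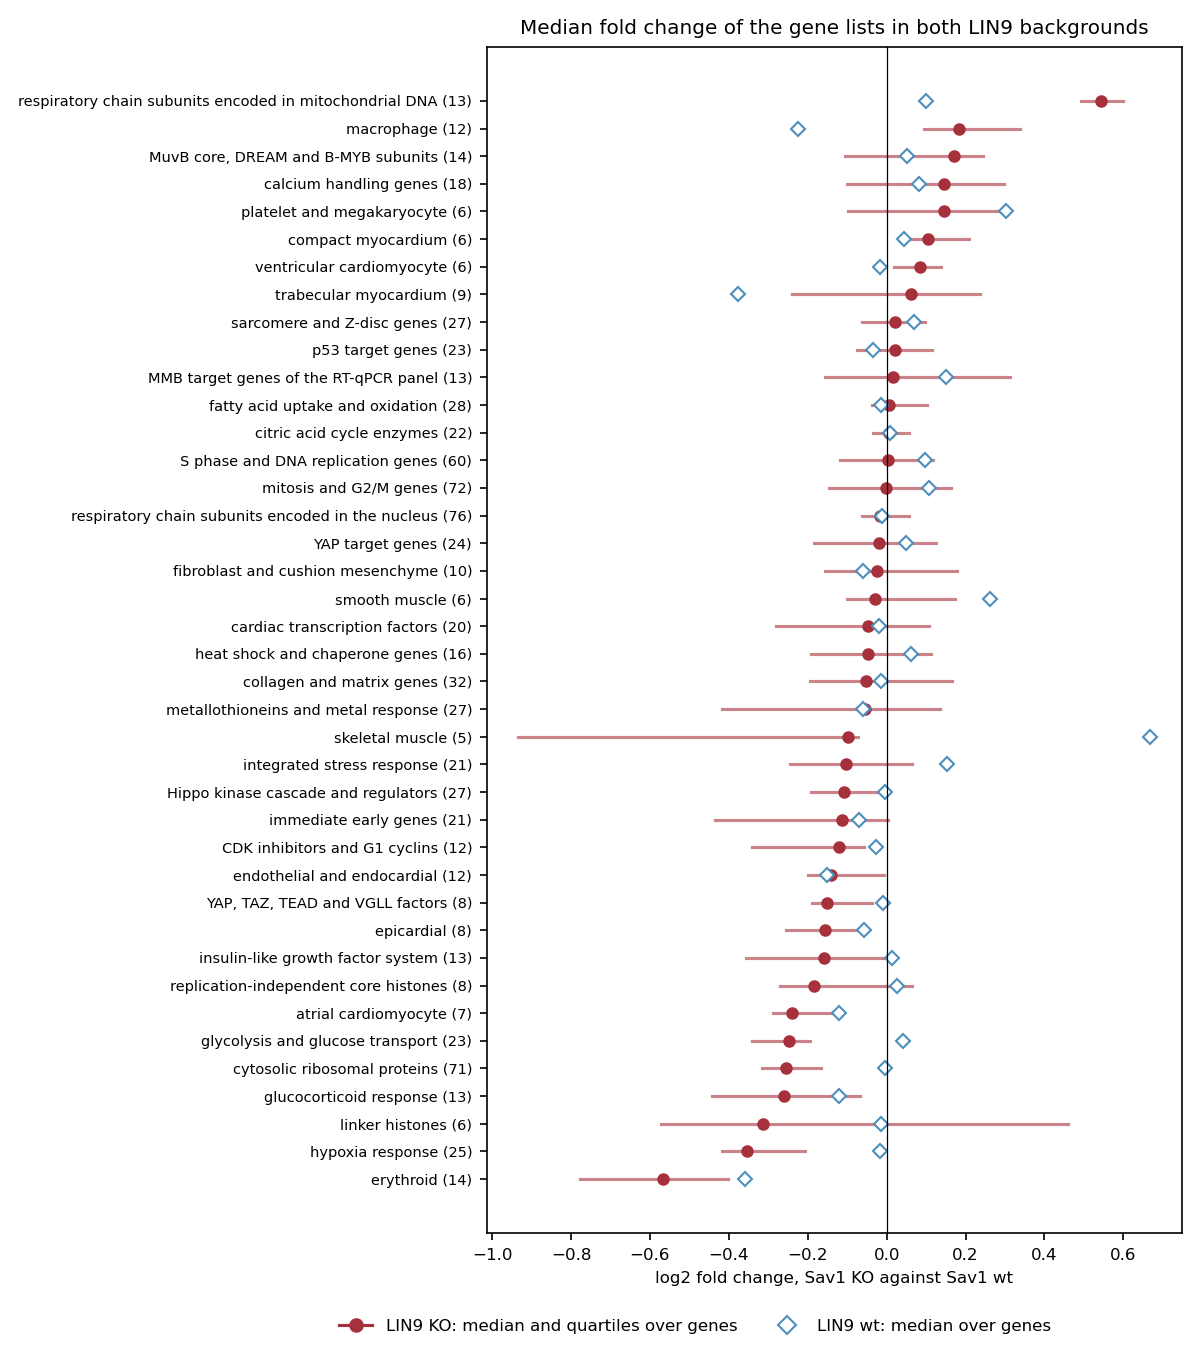
Median log2 fold change for Sav1 KO against Sav1 wt (x axis) of the pathway and cell type lists with at least 5 tested genes (y axis, number of tested genes in brackets). Filled circles and bars are the median and quartiles over genes in LIN9 KO, and open diamonds are the median in LIN9 wt. Respiratory genes of mitochondrial DNA lie highest (0.54), and hypoxia (-0.35) and erythroid genes (-0.57) lowest.

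Length went with the fold change. The fifth of genes with the shortest exonic sequence (56 to 1670 bases) held 3526 genes. Of these 368 were lower and 94 higher at an unadjusted p under 0.05, with a median of -0.08. In the fifth with the longest (7010 to 123179 bases, 3522 genes) 153 were lower and 278 higher, with a median of 0.07. Of all genes 7.12% were lower and 4.72% higher at this p. In the LIN9 wt background the medians of the 5 classes lay between -0.01 and 0.02. Long genes were 0.13 and 0.10 above their mean over 12 libraries (median, log2 CPM) in replicates 2 and 3 of the double knockout, and 0.03 above it in replicate 1. In the single knockout they were 0.08 below it in replicate 1 and 0.05 and 0.06 above it in replicates 2 and 3, and in replicate 1 of LIN9 wt Sav1 wt 0.13 below it. Without replicate 1 of the single knockout the medians of the shortest and longest class were -0.03 and 0.03. Ttn, the titin gene, was at 571, 816 and 1924 CPM in the single and 1506, 2218 and 2275 CPM in the double knockout (log2 0.86, SE 0.48, adjusted p = 0.533, edgeR), and at 1714, 3689.5 and 3743 CPM in LIN9 wt Sav1 wt. Without replicate 3 of the single knockout the log2 fold change of Ttn was 1.53. Of 590 long intergenic noncoding RNAs 47 were higher and 16 lower at an unadjusted p under 0.05 (median 0.27), and of 389 antisense transcripts 16 and 9 (median 0.19), where 4.72% of all genes were higher and 7.12% lower. The part of transcript length in the results of the lists was not tested.

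**Figure D5:**
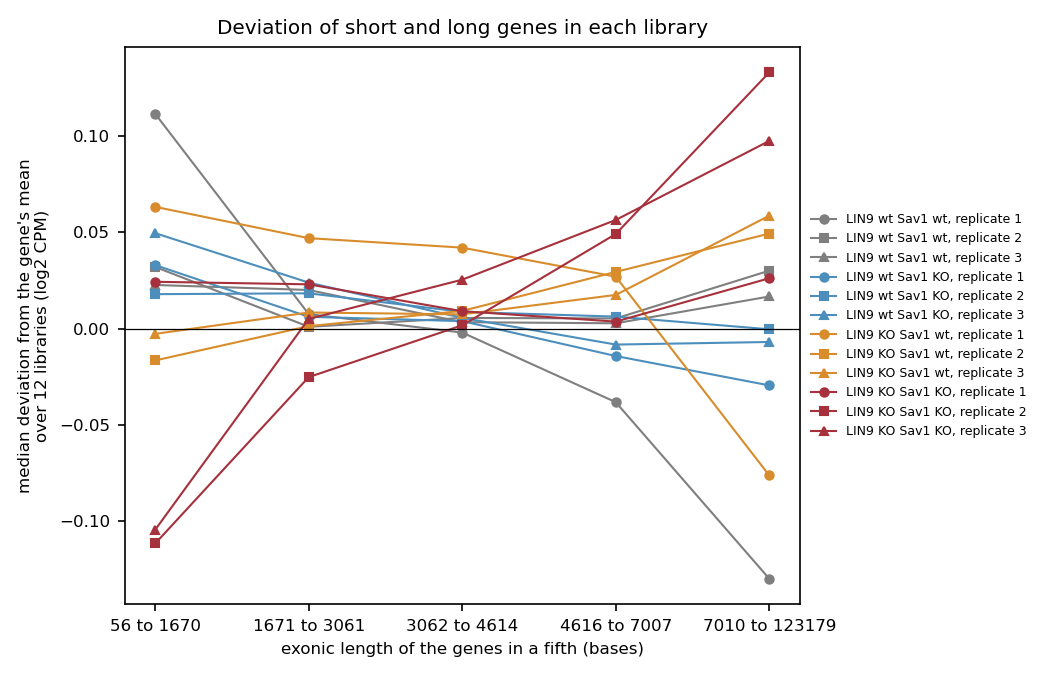
Median deviation of genes from their mean over the 12 libraries (y axis, log2 CPM) in 5 classes of exonic length (x axis, bases), with a line for each library. Long genes are low in replicate 1 of LIN9 KO Sav1 wt and of LIN9 wt Sav1 wt and high in replicates 2 and 3 of the double knockout, where short genes are low.

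Of 21 immediate early genes 8 were lower and 0 higher at an unadjusted p under 0.05 (38.1% and 0%, against 7.12% and 4.72% of all genes; median -0.11, and -0.23 without replicate 3 of the single knockout). Dusp1, a phosphatase of MAP kinases, was at 43.4, 35.4 and 34.3 CPM in the single and 21.5, 30.6 and 26.7 CPM in the double knockout (log2 -0.52, adjusted p = 0.147, edgeR), and Zfp36, which destabilises mRNAs of cytokines, at 30.6, 32.5 and 22.0 CPM and 19.4, 17.3 and 20.6 CPM (log2 -0.57, adjusted p = 0.189). The AP-1 subunit Fosl2 and Ier3 overlapped between groups. With the 18S covariate the median of this list was 0.07. Of 13 glucocorticoid response genes 4 were lower and 0 higher (median -0.26, and -0.12 in LIN9 wt). Mt1, called above and counted among the genes of metal handling, was 1 of the 4. Of 21 genes of the integrated stress response 3 were lower and 0 higher (median -0.10, and 0.15 in LIN9 wt). Of 16 heat shock genes 2 were lower and 0 higher (median -0.05), and of 23 p53 targets 0 lower and 1 higher (median 0.02). Without replicate 1 of the single knockout the median was -0.03 for the integrated stress response and 0.02 for heat shock genes. Without replicate 3 it was -0.08 for heat shock genes and -0.01 for p53 targets.

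Of 27 tested genes of the kinase cascade and its regulators 2 were lower and 1 higher at an unadjusted p under 0.05 (7.41% and 3.70%, against 7.12% and 4.72% of all genes), with a median of -0.11. The lower ones, Amotl2 and Ptpn14, retain YAP outside the nucleus and are also YAP targets. Amotl2 was at 186, 144 and 143 CPM in the single and 109, 119.8 and 144 CPM in the double knockout (log2 -0.35, adjusted p = 0.21, edgeR). The higher one was Mob1b, an activator of LATS, at 82.8, 122 and 129.7 CPM and 165, 131 and 138 CPM (log2 0.38, edgeR adjusted p = 0.303). Yap1 was at 267, 208 and 197 CPM and 183, 198 and 212 CPM, and Wwtr1, the gene of TAZ, at 172, 175 and 163 CPM and 153, 152 and 145 CPM, each with a log2 fold change of -0.18. Of the TEAD factors, Tead1, Tead2, Tead3 and Tead4 had log2 fold changes of -0.05, -0.12, 0.05 and 0.00. Of the cofactors that compete for TEAD, Vgll4 was at 73.3, 74.8 and 77.2 CPM and 57.6, 72.2 and 58.7 CPM (log2 -0.26, edgeR adjusted p = 0.379), and Vgll3 was at most 8.53 CPM. The median of the 8 factors was -0.15, and -0.07 without replicate 1 of the single knockout. Of 24 YAP target genes 4 were lower and 0 higher at an unadjusted p under 0.05 (edgeR; 0 passed the adjusted threshold, and 1 in each direction did without replicate 3 of the single knockout), with shares of 16.7% and 0% and a median of -0.02 against 0.05 in the LIN9 wt background. The median was 0.04 without replicate 1 and -0.09 without replicate 3 of the single knockout. The 4 genes were Amotl2, Ptpn14, Myc (33.5, 26.9 and 32.8 CPM against 25.2, 21.8 and 24.9 CPM) and the growth arrest gene Gadd45b. The summed level of the list was 3209, 2736 and 2884 CPM and 2929, 3016 and 3167 CPM, with the muscle ankyrin repeat gene Ankrd1 the most abundant.

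Cell cycle genes were close to balance. A panel of MMB targets was taken from the RT-qPCR of the study, which chose it for these genotypes, so its direction is not independent evidence. Of its tested genes, 13 in number, 1 was higher and 1 lower at an unadjusted p under 0.05 (7.69% and 7.69%, against 4.72% and 7.12% of all genes; edgeR, 0 passed the adjusted threshold), with a median of 0.02 against 0.15 for Sav1 loss in the LIN9 wt background and a median interaction of -0.13. The higher gene was Ect2, a gene of cytokinesis, at 71.3, 101 and 98.4 CPM in the single and 116, 112 and 109 CPM in the double knockout (log2 0.31, edgeR adjusted p = 0.295). Gas2l3, which links actin and microtubules at the midbody, was lower at 56.2, 75.4 and 59.6 CPM and 48.4, 60.6 and 40.6 CPM (log2 -0.36, edgeR adjusted p = 0.271). Top2a, Birc5, Kif23, Anln and Mybl2 had log2 fold changes of -0.03, 0.06, 0.02, 0.16 and 0.00, and Ccna2, Foxm1 and Nusap1 of -0.16, -0.22 and -0.21. Cenpf, a kinetochore protein gene, was at 20.7, 53.1 and 77.9 CPM and 91.3, 109.5 and 101 CPM (log2 1.00, SE 0.69, edgeR adjusted p = 0.625), Aspm at 31.2, 79.1 and 83.5 CPM and 79.4, 97.6 and 79.0 CPM, and Casc5 at 12.2, 53.5 and 60.4 CPM and 56.9, 72.6 and 48.4 CPM. Summed over the panel, LIN9 wt libraries held 1413.5, 1756.5 and 1867.1 CPM with Sav1 wt and 1737.2, 2022 and 1973 CPM with Sav1 KO. The LIN9 wt groups thus overlapped, and replicate 1 was the lowest in each.

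Of 14 tested genes of MuvB, DREAM and B-MYB subunits, Lin9 among them, 2 were higher and 1 lower at an unadjusted p under 0.05 (median 0.17). Of all genes 4.72% were higher and 7.12% lower at this p. Of 72 genes of mitosis 2 were higher and 4 lower (2.78% and 5.56%), with a median of -0.00 in LIN9 KO and 0.11 in LIN9 wt. The kinase gene Aurkb was at 63.1, 59.0 and 50.0 CPM in the single and 42.3, 44.7 and 38.8 CPM in the double knockout (log2 -0.45, adjusted p = 0.137, edgeR), and Ube2c, an enzyme of the anaphase promoting complex, at 121, 103 and 109 CPM and 83.2, 88.4 and 90.4 CPM (log2 -0.35, adjusted p = 0.163). Sgol2a, a protector of cohesion, was higher at 5.59, 12.5 and 13.8 CPM and 21.5, 17.6 and 15.7 CPM. Of 60 S phase genes 3 were higher and 4 lower (5.00% and 6.67%), with medians of 0.00 and 0.10. Pold2, a subunit of DNA polymerase delta, was at 50.9, 47.2 and 42.5 CPM and 31.7, 31.7 and 33.4 CPM (log2 -0.54, edgeR adjusted p = 0.127), and Wdhd1, a replisome factor, at 31.2, 35.1 and 33.6 CPM and 47.7, 40.5 and 44.1 CPM (log2 0.41, adjusted p = 0.212). The summed level of the mitosis list was 5062, 6192 and 6012 CPM in the single and 6052, 6114 and 5979 CPM in the double knockout, so that replicate 1 of the single knockout was low. In LIN9 wt it was 6103.8, 7205 and 7421.5 CPM with Sav1 wt and 7117.9, 8040.7 and 7783.7 CPM with Sav1 KO. Those groups overlapped, and replicate 1 was the lowest in each. Of 12 genes of CDK inhibitors and G1 cyclins 1 was lower and 0 higher (median -0.12, and -0.01 and -0.19 without replicate 1 or 3 of the single knockout), the inhibitor p27 (Cdkn1b) at 109, 118 and 113 CPM and 81.1, 98.6 and 81.8 CPM (log2 -0.38, edgeR adjusted p = 0.144).

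Of 27 sarcomere genes 0 had an unadjusted p under 0.05 in either direction (edgeR; median 0.02). Of 18 calcium handling genes 1 was higher and 1 lower at this p (median 0.15). In 3 of the 18 the double knockout was higher without overlap, a larger share than the 7.2% of all genes. Without replicate 3 of the single knockout 2 calcium handling genes were higher and 1 lower at an adjusted p under 0.05 (edgeR). Casq2, the calcium buffer of the sarcoplasmic reticulum, was at 358, 296 and 324 CPM in the single and 457, 384 and 363 CPM in the double knockout (log2 0.30, edgeR adjusted p = 0.22), and the T-type channel gene Cacna1h at 208, 241 and 173 CPM and 129.9, 191 and 150.5 CPM (log2 -0.40, adjusted p = 0.189). Of 20 cardiac transcription factors 2 were higher and 5 lower (10.0% and 25.0%, against 4.72% and 7.12% of all genes). The median was -0.05, and 0.00 and -0.19 without replicate 1 or 3 of the single knockout. Hey1, a target of Notch, was at 38.1, 27.6 and 34.7 CPM and 24.5, 22.9 and 24.5 CPM, Mef2d at 197, 184 and 181 CPM and 148, 165 and 151 CPM, and Myocd, the myocardin gene, at 51.6, 66.3 and 63.8 CPM and 77.4, 79.9 and 67.6 CPM, with log2 fold changes of -0.48, -0.28 and 0.31. Of 32 collagen and matrix genes 3 were higher and 2 lower (median -0.05). This median was -0.01 and -0.16 without replicate 1 or 3 of the single knockout.

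The markers of cell types gave no list in which most members differed. Ventricular (6 genes) and endothelial genes (12 genes) had 0 members at an unadjusted p under 0.05 (edgeR) and medians of 0.08 and -0.14. Of all genes 4.72% were higher and 7.12% lower at this p. Without replicate 1 of the single knockout these medians were 0.19 and -0.03, and without replicate 3 0.01 and -0.18. Of 7 atrial genes 1 was lower (median -0.24), of 9 trabecular genes 1 was higher and 1 lower (median 0.06, against -0.38 in LIN9 wt), and of 6 compact myocardium genes 1 was higher and 1 lower (median 0.11). The higher one was Tbx20, at 565, 678 and 689 CPM in the single and 753, 732 and 782 CPM in the double knockout. Some lists share members: Tbx20 is also in the fibroblast and cushion list, Nppa in the atrial and the trabecular list and Myocd in the smooth muscle list. Nppa, the atrial natriuretic peptide gene of trabeculae, was at 1802, 1553 and 1349.6 CPM and 1239, 1394 and 1354 CPM, far above the 244 to 491 CPM of the LIN9 wt libraries, with overlapping groups (log2 -0.24, edgeR adjusted p = 0.497). Of 8 epicardial genes 2 were lower (median -0.16), of 10 fibroblast and cushion genes 1 was higher and 1 lower (median -0.03), and of 6 smooth muscle genes 2 were higher (median -0.03), Acta2 among them at 835, 695 and 663 CPM and 822, 776 and 987 CPM. The epicardial gene Upk3b was at 154, 118 and 155 CPM and 114, 102 and 127 CPM. Without replicate 1 of the single knockout the median was -0.10 for trabecular, 0.09 for fibroblast and cushion and 0.10 for smooth muscle genes. Without replicate 3 it was 0.03 for compact myocardium, -0.08 for fibroblast and cushion and -0.002 for smooth muscle genes.

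Blood cell lists differed among themselves. All 14 erythroid genes had a negative log2 fold change, 4 of them at an unadjusted p under 0.05 (28.6%, against 7.12% of all genes; median -0.57, against -0.36 in LIN9 wt). Without replicate 3 of the single knockout the median was -0.36, level with that of LIN9 wt. The embryonic alpha globin gene Hba-x was at 1033, 1172 and 1313 CPM in the single and 847, 680.4 and 462 CPM in the double knockout (log2 -0.82, adjusted p = 0.233, edgeR), the anion exchanger of red cells Slc4a1 at 206, 157 and 271 CPM and 167, 137 and 101 CPM, and the erythroid nuclear protein gene Hemgn at 9.86, 3.28 and 7.83 CPM and 2.05, 3.17 and 1.42 CPM. Of 12 macrophage genes 3 were higher and 0 lower at an unadjusted p under 0.05 (25.0% and 0%, against 4.72% and 7.12% of all genes; median 0.18, against -0.22 in LIN9 wt). They were the leukocyte phosphatase Ptprc, the mannose receptor Mrc1 at 23.7, 23.3 and 23.9 CPM and 26.9, 35.9 and 29.2 CPM, and Fcer1g at 7.89, 4.92 and 5.59 CPM and 9.88, 9.86 and 9.25 CPM. Tyrobp, an adaptor of myeloid receptors, went the other way without overlap, at 11.2, 10.5 and 8.95 CPM and 8.52, 5.64 and 8.18 CPM (log2 -0.46, edgeR adjusted p = 0.513). Lyz2 was the most abundant, and the summed level was 304, 262 and 273 CPM and 298, 325 and 335 CPM against 121 to 156 CPM in the LIN9 wt libraries. Of 6 platelet genes 0 were past an unadjusted p of 0.05 (median 0.15, and -0.05 without replicate 1 of the single knockout). Of 4 tested neural crest genes 1 was lower (Mbp, log2 -0.55), of the epithelial keratins Krt18 was lower (49.6, 56.4 and 48.8 CPM against 36.1, 36.6 and 38.8 CPM), of 5 skeletal muscle genes 0 and of 4 Y-linked genes 0 were past this threshold. Without replicate 3 of the single knockout the log2 fold change of Mbp was -0.30.

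The test of whether Sav1 loss acted differently with and without Lin9 gave no call. The interaction, the Sav1 effect in LIN9 KO less that in LIN9 wt, passed for 0 of 17675 genes (0%) in edgeR and for 0 in DESeq2. At an unadjusted p under 0.05 there were 454 higher (2.57%) and 702 lower genes (3.97%) in edgeR, 1156 together, and 524 in DESeq2. Slit2, a guidance ligand, had the smallest p among the higher genes. It was at 276, 300.1 and 287 CPM in the single and 270.3, 325 and 324 CPM in the double knockout, and at 244, 309 and 288 CPM and 196, 171 and 179 CPM in LIN9 wt libraries with Sav1 wt and Sav1 KO. Only the LIN9 wt groups were apart (log2 -0.63, adjusted p = 0.0155, edgeR), and the interaction was 0.72 (adjusted p = 0.439, and 0.0241 without replicate 3 of the single knockout). Pcca, a subunit of propionyl-CoA carboxylase, and the potassium channel gene Kcnn3 followed with 1.01 and 1.43. Among the lower genes the integrin Itga3 was at 50.9, 51.2 and 41.8 CPM and 31.4, 35.9 and 40.9 CPM in LIN9 KO and at 35.6, 34.9 and 36.7 CPM and 50.5, 49.0 and 48.1 CPM in LIN9 wt, lower with Sav1 KO in the first background and higher in the second (interaction -0.88, edgeR adjusted p = 0.439). The pseudogene Gm8349 and 2310022B05Rik had interactions of -1.21 and -0.62.

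Without replicate 3 of the single knockout 64 genes passed the interaction test (0.362%), 47 higher and 17 lower, and 59 of them were also among the 356 genes called for Sav1 loss in LIN9 KO. The processed pseudogene Gm12896 had the smallest adjusted p for Sav1 loss, and structural RNAs were among the next. In this fit Rn18s-rs5 had a log2 fold change of 3.51 (adjusted p = 0.00859, edgeR), mt-Rnr1 of 1.60 (adjusted p = 5.36e-06), mt-Rnr2 of 1.93 (adjusted p = 6.17e-04) and Rpph1 of 4.03 (adjusted p = 5.36e-06), although the library left out held as much of them as the double knockout did. Protein coding genes with the same split of the single knockout were called as well, such as Arhgap21 at 204, 223 and 2238 CPM against 934, 1612 and 1605 CPM (log2 2.70), Lars2 (log2 3.76), Gphn (log2 3.53) and Cdk8 (log2 3.36). Other called genes were Auts2 (log2 1.15), Npas3 (log2 1.93), Fscn1 (log2 -0.64), Furin (log2 -0.68) and Irf2bpl (log2 -0.69). The genes of this paragraph other than Irf2bpl were chosen after their values were seen.

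Genes that responded to Lin9 loss in the earlier experiment were followed here in libraries that did not choose them. There 826 of 19752 genes (4.18%) were higher and 315 (1.59%) lower in LIN9 KO, at an adjusted p under 0.05 and a log2 fold change of at least 1 in either direction (edgeR). Of the 789 tested genes of the first list 87 were lower and 20 higher in the double than in the single knockout at an unadjusted p under 0.05 (11.0% and 2.53%, against 7.12% and 4.72% of all genes), with a median of -0.10. Basp1, Fam210b and the small MAF factor Maff were examples, with Maff at 36.5, 45.3 and 30.9 CPM and 23.5, 25.7 and 22.8 CPM against 11.1 to 14.7 CPM in the LIN9 wt libraries. Of the 299 tested genes of the second list 20 were higher and 5 lower (6.69% and 1.67%), with a median of 0.11, such as the microfibril gene Mfap5 at 3.62, 3.61 and 2.61 CPM and 8.52, 6.34 and 6.76 CPM and the muscle kinase gene Srpk3 at 22.3, 13.8 and 19.8 CPM and 23.5, 27.1 and 33.1 CPM. In the LIN9 wt background the medians of these lists were -0.06 and 0.09.

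The neighbourhood of the floxed genes was examined because flanking strain DNA travels with a targeted allele. Both compared groups were Lin9 fl/fl, so the Lin9 window cannot show such DNA, and only the Sav1 alleles differed. Of 245 tested genes within 20 Mb of Sav1 20 were higher and 14 lower at an unadjusted p under 0.05 (8.16% and 5.71%, median 0.05), and of 295 within 20 Mb of Lin9 14 were higher and 16 lower (4.75% and 5.42%, median 0.01). Of all genes 4.72% were higher and 7.12% lower. The 4 genes of smallest p near Sav1 are given. Irf2bpl had a log2 fold change of -0.54, the splicing factor gene Srsf5 of 0.38 and Ift43, a gene of ciliary transport, of 0.45, against 0.08, 0.10 and 0.10 in LIN9 wt. Snapc1, a subunit of the small nuclear RNA activating complex, was at 21.4, 20.7 and 21.2 CPM and 13.6, 14.1 and 13.52 CPM in LIN9 KO and at 26.6, 23.3 and 28.4 CPM and 13.46, 12.2 and 16.4 CPM in LIN9 wt, lower with Sav1 KO and without overlap in both backgrounds (log2 -0.62 and -0.90, adjusted p = 0.151 and 0.0591, edgeR).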

How the data were processed

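The counts per gene were used as deposited by the authors. By their processing notes, reads were aligned with TopHat2 2.1.0 and Bowtie2 to mm10, all samples were cut to the mapped depth of the shallowest one, and reads were counted with summarizeOverlaps. The strandedness and the counting mode are not given in the sources used here. The authors' fold changes and p-values in the same tables were not used. Of 4 duplicated gene IDs 1 copy each was kept.

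Genes whose mean over all 12 libraries exceeded 1 count were tested with edgeR 4.0.16 in R 4.3.3 (TMM factors, robust quasi-likelihood fit of 4 genotype groups), and p-values were adjusted by Benjamini and Hochberg over 17675 genes. The contrasts were LIN9 KO Sav1 KO against LIN9 KO Sav1 wt, and the interaction with the same contrast in LIN9 wt. The code was tested on simulated data. Alternatives were DESeq2 1.42.0 (Wald test, and its size factors in the edgeR fit), library totals only, other filters, the 6 libraries alone, no robust estimation, a replicate block and each library left out. The 18S ribosomal RNA covariate, the fit without both replicate 1 libraries of the Sav1 wt groups and, for the Sav1 effect in LIN9 KO, the fits without single LIN9 wt libraries were added after the data were seen. Gene types, positions and exon overlap came from GENCODE M21, promoters from RefSeq. Tables and figures were made with Python 3.11.15, pandas 2.3.3 and matplotlib 3.10.9.

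Genes were named by rule: the targeted genes, all called genes, at 5 CPM or more the 10 genes of smallest p in each direction among those without overlap between groups and the 3 of smallest interaction p in each direction, up to 4 genes of smallest p of chosen lists at 1 CPM or more, full panels for the MMB targets, the YAP and TEAD factors and the linker histones, and the most abundant gene of each cell type. The members and lists were chosen with earlier results of these data known. Which lists have members named, the list of structural RNAs and the 18S covariate were chosen after values were seen.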

Additional observations from a re-analysis of the deposited data

How the results depend on the processing

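The number of genes called for Sav1 loss in LIN9 KO was 2 in the fit reported above. It was 46 with the DESeq2 Wald test, 309 with no filter on the mean count, and 0 with filterByExpr, with only the 6 libraries of the contrast and without robust estimation, where 1820, 1529 and 2110 genes had an unadjusted p under 0.05 (edgeR). With 1 library of the contrast left out the number was between 0 and 356. Of the fits chosen after seeing the data, the 18S ribosomal RNA covariate gave 1, leaving out both replicate 1 libraries of the Sav1 wt groups 34, and leaving out a single LIN9 wt library 0 to 23. The replicate block gave 84, of which 34 were higher, and 0 for the interaction. Deviations of libraries with the same number correlated between -0.10 and 0.64. They stood at -0.02, 0.16 and -0.10 between the compared groups, so the numbers were not taken to pair these samples. Between the Sav1 wt groups they were 0.64, 0.26 and 0.34, and between LIN9 KO Sav1 wt and LIN9 wt Sav1 KO 0.36, 0.12 and 0.17. In all, 9 of 12 libraries correlated best with libraries of their own number, for which the reported fit has no term. The number called for the interaction, 0, was 17 with no filter, 4 without both replicate 1 libraries and 0 to 64 with 1 library left out.

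The sign of some small log2 fold changes was reversed. With 1 library of the contrast left out, Tead1 lay between -0.14 and 0.023, Tead4 between -0.24 and 0.16, Kif23 between -0.068 and 0.081, Mybl2 between -0.057 and 0.11, Top2a between -0.17 and 0.07, Mt3 between -0.21 and 0.13, Hist1h1d between -1.21 and 0.34, Myh7 between -0.26 and 0.12, Myl4 between -0.059 and 0.089, Col3a1 between -0.20 and 0.15, Itga2b between -0.36 and 0.11, and Ddx3y between -0.16 and 1.35. With the 18S covariate Tead2 was at 0.024, Tead4 at -0.073, Kif23 at -0.079, Des at 0.006, Myh7 at 0.21, Myl4 at 0.027 and Ddx3y at -0.19. With library totals only the log2 fold change of Mybl2 was -0.00036 and the log2 fold change of Col3a1 was -0.0029. The log2 fold change of Myl4 was 0.00028 with DESeq2, 0.00029 with DESeq2 size factors, 0.0043 with filterByExpr and 0.013 with only the 6 libraries. Of the list medians 677 shifted by less than the spread between replicates of a group and 42 by more, over all settings. Without replicate 1 of LIN9 KO Sav1 wt the median of trabecular genes was -0.10. Without replicate 3 it was -0.07 for linker histones, -0.11 for atrial and -0.07 for epicardial genes. The cause was not tested.

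The comparison rests on 3 libraries a group, which differ in structural RNA, blood, Y-linked transcripts and the level of long genes, and no factor besides genotype was recorded. Counts per gene do not measure protein, cell number or the deletion itself.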
